A study of Mus musculus with 21 samples.

Results

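The lambda light chain genes *Iglv1*, *Iglv2*, *Iglv3*, *Iglc1*, *Iglc2* and *Iglc3* were followed in IgA+ plasma cells (PCs) of the mouse small intestine. They were taken by gene name from the table of read counts, and all 6 were among its 53801 genes and passed the filter on low counts. Bulk RNA-seq was available for 21 mice of the C57BL/6 background, with 1 library of sort-purified CD138+ IgA+ PCs each. The mice were 6 controls at ZT0, 6 controls at ZT12, 4 knockouts at ZT0 and 5 knockouts at ZT12, where ZT is Zeitgeber time, in hours after the lights come on. All 21 carried floxed alleles of the clock gene *Arntl* (Arntlfl/fl), controls without Cre (Mb1Cre-/-) and knockouts with 1 Cre allele (Mb1Cre+/-), which is driven from *Mb1*, the gene *Cd79a*, in the whole B cell lineage from early development and not in PCs alone. Titles of the samples gave the genotype used here, because for 8 of the 9 knockouts the separate genotype field reads as control. The comparisons asked whether the use of lambda relative to *Igkc*, the constant gene of the kappa light chain, differed between ZT0 and ZT12, between genotypes, and between single mice.

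An antibody pairs a heavy chain with a kappa or a lambda light chain, and most mouse B cells use kappa. A light chain mRNA joins a V exon, which encodes most of the antigen-binding domain, through a short J segment to a C exon, which encodes the constant domain. The mouse lambda locus is small and holds few V genes. *Iglv1* mostly joins the J and C segments of *Iglc1* or *Iglc3* that lie downstream of it, whereas *Iglv2* and *Iglv3* mostly join those of *Iglc2*. Because the choice is made once in the life of a B cell and is passed to its descendants, a PC carries the V and C genes of the clone it belongs to.

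The V exons of *Iglv1* and *Iglv2* and the C exons of *Iglc2* and *Iglc3* are shown because their near identity bears on how reads can be assigned to them. Sequences are those of GRCm38 with the GENCODE M21 annotation, 5′ to 3′ on the minus strand of chromosome 16. The first 300 bases of the V exons are given, at chr16:19085022-19085321 for *Iglv1* and chr16:19260406-19260705 for *Iglv2*, and capitals mark the bases that differ between them.
Iglv1: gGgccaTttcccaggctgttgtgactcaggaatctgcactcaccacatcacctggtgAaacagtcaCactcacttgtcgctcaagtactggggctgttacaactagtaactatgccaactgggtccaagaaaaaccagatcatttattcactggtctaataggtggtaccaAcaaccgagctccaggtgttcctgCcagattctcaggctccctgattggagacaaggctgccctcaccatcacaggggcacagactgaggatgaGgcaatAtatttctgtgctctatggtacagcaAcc
Iglv2: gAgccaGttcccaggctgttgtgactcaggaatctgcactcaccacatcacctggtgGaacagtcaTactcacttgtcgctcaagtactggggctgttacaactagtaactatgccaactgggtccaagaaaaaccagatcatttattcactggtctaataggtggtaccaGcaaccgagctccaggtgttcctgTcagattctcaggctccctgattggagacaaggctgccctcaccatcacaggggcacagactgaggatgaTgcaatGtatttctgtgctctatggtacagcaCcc
The pair were 97% identical over the 305 bases of the exon, with 9 differing bases, and the longest run without a difference was 104 bases. Of all windows of 50 bases in *Iglv2*, 29.7% occurred unchanged in *Iglv1*. *Iglv3* was only 52.2% identical to *Iglv1* and shared no such window with it.

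The first 300 coding bases of the C exons follow, at chr16:19198554-19198853 for *Iglc2*, chr16:19065382-19065681 for *Iglc3* and chr16:19061772-19062071 for *Iglc1*. Capitals in *Iglc2* and *Iglc3* mark where these 2 differ from each other, and capitals in *Iglc1* mark where it differs from *Iglc2*.
Iglc2: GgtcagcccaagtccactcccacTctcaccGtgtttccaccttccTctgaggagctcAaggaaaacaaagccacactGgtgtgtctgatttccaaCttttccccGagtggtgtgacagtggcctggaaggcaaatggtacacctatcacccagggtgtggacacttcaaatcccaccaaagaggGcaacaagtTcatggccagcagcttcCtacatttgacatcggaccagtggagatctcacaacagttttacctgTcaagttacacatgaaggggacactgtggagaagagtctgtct
Iglc3: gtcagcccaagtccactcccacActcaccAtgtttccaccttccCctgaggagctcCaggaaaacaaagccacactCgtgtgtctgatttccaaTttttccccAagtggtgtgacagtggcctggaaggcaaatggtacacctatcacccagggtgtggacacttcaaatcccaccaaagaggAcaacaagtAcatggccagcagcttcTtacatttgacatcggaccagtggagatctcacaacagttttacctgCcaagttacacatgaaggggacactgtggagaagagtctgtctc
Iglc1: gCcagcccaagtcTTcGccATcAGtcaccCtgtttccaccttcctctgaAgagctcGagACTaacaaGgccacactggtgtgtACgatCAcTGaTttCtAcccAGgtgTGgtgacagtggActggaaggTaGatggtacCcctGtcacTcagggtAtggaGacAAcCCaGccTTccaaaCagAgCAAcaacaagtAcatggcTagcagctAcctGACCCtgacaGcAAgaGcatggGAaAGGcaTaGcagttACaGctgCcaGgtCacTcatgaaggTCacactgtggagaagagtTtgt
Over the whole coding exon *Iglc3* was 96.2% identical to *Iglc2*, with 11 differing bases and 1 missing base at its start. That base depends on the exon boundary in the annotation, since another *Iglc2* transcript begins its C exon at 19198852 and not at 19198853. Of the windows of 50 bases in *Iglc3*, 14.3% occurred unchanged in *Iglc2*. *Iglc1* was 73.4% identical to *Iglc2* and shared no window of 50 bases with it. The windows of 50 bases are shorter than the paired-end reads in the published methods. These percentages are therefore not the share of reads that could be split. The longest shared runs, 104 bases for the V pair and 79 for the C pair, were also shorter than those reads. How the counting treated such genes is not given. Counts of *Iglv1* against *Iglv2*, and of *Iglc2* against *Iglc3*, are uncertain as far as the counting could split reads between them. The main comparisons were repeated with each pair summed.

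The segments *Iglj1*, *Iglj2* and *Iglj3* are given because their counts bear on which C gene was used. Capitals mark differences from *Iglj1*, and the positions are chr16:19063225-19063262 for *Iglj1*, chr16:19200198-19200235 for *Iglj2* and chr16:19067041-19067078 for *Iglj3*.
Iglj1: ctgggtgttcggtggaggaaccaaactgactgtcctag
Iglj2: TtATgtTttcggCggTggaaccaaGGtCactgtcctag
Iglj3: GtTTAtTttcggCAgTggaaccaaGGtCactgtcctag
*Iglj3* was 89.5% identical to *Iglj2* and 71.1% identical to *Iglj1*. *Iglj2* lies wholly within an exon of the *Iglc2* gene model (chr16:19200198-19200351) and held 0 counts in all 21 mice, so that reads from it cannot be told apart from those of *Iglc2*.

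The 12 genes of the locus span 199242 bases of chromosome 16 (chr16:19061618-19260859, minus strand). In the direction of transcription *Iglv2* and *Iglv3* come first, followed by *Iglj2* with *Iglc2* and *Iglj4* with *Iglc4*, then by *Iglv1*, and last by *Iglj3* and *Iglj3p* with *Iglc3* and *Iglj1* with *Iglc1*. *Igkc* lies on chromosome 6 (chr6:70726435-70726966, plus strand). Summed over the 21 mice, *Iglv1* held 2112160 counts and *Iglc1* 1818651, and these were the main V and C genes of lambda. *Iglc2* held 357861 counts, *Iglv2* 159137, *Iglc3* 93186 and *Iglv3* 69502, against 38750783 counts on *Igkc*.

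The libraries held from 14471018 to 22785835 counts. Immunoglobulin genes took 51.5% to 63.6% of them, and 4 libraries stood apart with 59.1% or more, against at most 55.7% in the other 17. These were control ZT12 replicates 2, 4 and 5 and knockout ZT0 replicate 3, and results are also given without them where that changes their direction. The PC markers *Sdc1*, *Prdm1*, *Xbp1*, *Irf4*, *Jchain*, *Igha* and *Tnfrsf17* were all expressed, with a summed level of 280900 to 592100 CPM (counts per 1000000 counts, with TMM scaling as below). Markers of other B cells summed to 12.6 to 29.4 CPM, of T cells to 12.2 to 28.3 CPM, of myeloid cells to 13.1 to 77.7 CPM and of epithelial cells to 48.9 to 694 CPM, and every gene of these lists had counts. *Cd79a*, of which Cre replaces 1 copy, was at 163 to 276 CPM in knockout mice and at 386 to 586 CPM in controls, so that the groups did not overlap. *Arntl* was at 7.80 ± 0.53 CPM (SD, n = 6) in controls at ZT0 and at 4.87 ± 1.08 CPM (SD, n = 4) in knockouts at ZT0, and at 4.55 ± 0.55 (SD, n = 6) and 3.89 ± 0.70 CPM (SD, n = 5) at ZT12.

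Lambda was the minor light chain in every mouse. Counts on *Iglc1*, *Iglc2* and *Iglc3* together made up 2.89% to 9.60% of the counts on these genes and *Igkc*, with a median of 5.39%. In controls at ZT0 the share was 3.68% in the lowest mouse, 4.39% at the median and 5.91% in the highest, with a mean of 4.65% ± 0.95 (SD, n = 6). In controls at ZT12 it was 2.89% at the lowest, 4.69% at the median and 9.22% at the highest, with a mean of 5.22% ± 2.28 (SD, n = 6). Both ends of the control mice at ZT12 lay outside the range at ZT0. In knockouts at ZT0 the share was 4.90%, 7.27%, 9.60% and 5.69%, with a mean of 6.87% ± 2.07 (SD, n = 4). In knockouts at ZT12 it was 6.21%, 6.43%, 4.87%, 5.39% and 6.42%, with a mean of 5.87% ± 0.70 (SD, n = 5), the narrowest of the groups. All ranges overlapped. The counting error is small beside this spread, for example exact 95% Clopper-Pearson limits of 2.87% and 2.91% in the mouse with the lowest share (control ZT12 replicate 3), and it covers counting error only. In bulk RNA, fewer lambda cells and less lambda mRNA per cell cannot be told apart.

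**Figure D1:**
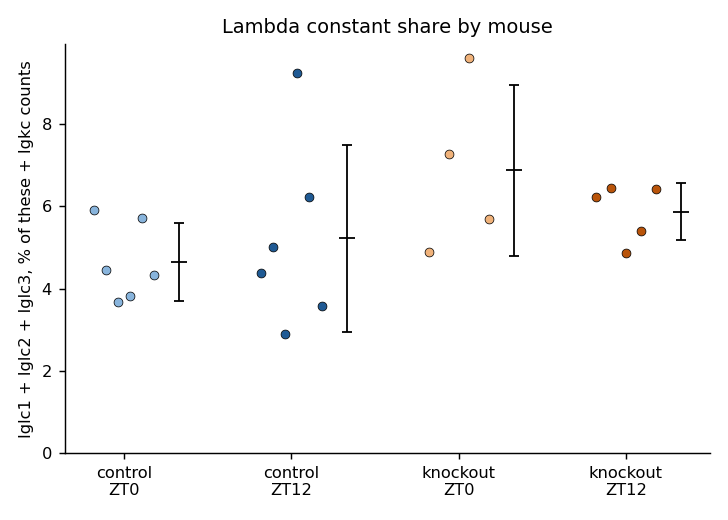
Lambda constant share in each of 21 mice, as the counts on Iglc1, Iglc2 and Iglc3 in percent of these and Igkc counts (vertical axis), by genotype and ZT (horizontal axis); points are mice and bars the mean with 1 SD. The shares run from 2.89% to 9.60%, all groups overlap, and the highest mice are knockout ZT0 replicate 3 and control ZT12 replicate 4.

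The difference of the means in controls was 0.565 percentage points (standard error 1.01) from ZT0 to ZT12, and in knockouts it was -1.0 (standard error 1.08), within the SD of 1.63 between mice of a group. At ZT0 the knockouts lay 2.21 points above the controls (standard error 1.11), and at ZT12 they lay 0.650 points above (standard error 0.982). These sums over several genes were described without a test. The comparisons share mice, since each group enters more than 1 of them. The interaction of genotype and time was -1.56 points (standard error 1.48). Without knockout ZT0 replicate 3 the difference at ZT0 was 1.30 points, the change in knockouts -0.089 and the interaction -0.654. Without control ZT12 replicate 4 the change in controls was -0.24 points, and the difference at ZT12 was 1.45 without that mouse and 0.185 without control ZT12 replicate 3. Without the 4 libraries of high immunoglobulin share, the knockouts lay 1.30 points above the controls at ZT0 (standard error 0.798) and 2.26 points above them at ZT12 (standard error 0.529). The 3 remaining controls at ZT12 had shares of 2.89% to 4.37%, below the 4.87% to 6.43% of the 5 knockouts at that time. The 4 libraries were picked after seeing the data, and their immunoglobulin share includes the lambda counts. At ZT12 they were the 3 controls with the highest lambda shares (5.02%, 9.22% and 6.23%), and at ZT0 the knockout with the highest (9.60%). The separation at ZT12 is therefore not independent of that choice, nor are the signs that follow. Without the 4 libraries the change in controls from ZT0 to ZT12 was -1.04 points (standard error 0.575), opposite in sign to that of all 12 controls. The interaction was then 0.954 points (standard error 0.957), also opposite in sign.

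Single genes were tested with edgeR across all genes, first relative to all genes with TMM scaling (trimmed mean of M-values) and then relative to *Igkc*, by using the *Igkc* count of each library as its size. A gene was called at an adjusted p under 0.05, with Benjamini-Hochberg adjustment over all genes. With TMM scaling, 0 of the 6 lambda genes were called from ZT0 to ZT12 in control mice, where 1.73% of the 20256 genes tested were called. Likewise 0 of 6 were called over time in knockouts (0% of all genes), 0 of 6 in the interaction of genotype and time (0%), 0 of 6 between genotypes at ZT0 (0.00987%) and 0 of 6 at ZT12 (0.0148%). Relative to *Igkc*, 0 of 6 were called in each comparison, beside 0.158% of the 20255 genes tested over time in controls, 0% in knockouts, 0% in the interaction, 0.00987% between genotypes at ZT0 and 0.00987% at ZT12. Few genes of any kind passed in 4 of the 5 comparisons, so the lambda genes did not stand out from the background by this count. With TMM scaling *Arntl*, the floxed gene itself, was not called between genotypes. Its log2 difference was -0.68 at ZT0 (edgeR adjusted p = 0.926) and -0.23 at ZT12 (edgeR adjusted p = 0.678). *Cd79a* was called lower in knockouts at both times. The absence of a call between genotypes therefore says little. DESeq2 in place of edgeR also called 0 of the 6 in each comparison on both scales, although it called more of the genes fitted over time in controls (5.3%, and 8.37% relative to *Igkc*). In the other 4 comparisons, in the same order, it called 0.316%, 0.0148%, 0.0247% and 0.0346% of them, and relative to *Igkc* 0.00494%, 0.00494%, 0.00987% and 0.0247%. An unadjusted p under 0.05 was reached on the TMM scale by 1 of the 6 over time in controls (18.1% of all genes), 0 in knockouts (8.01%), 1 in the interaction (10.8%), 2 between genotypes at ZT0 (4.9%) and 0 at ZT12 (8.83%). Relative to *Igkc* it was reached by 0 over time in controls (25.3% of all genes), 0 in knockouts (5.1%), 1 in the interaction (12%), 2 between genotypes at ZT0 (3.22%) and 1 at ZT12 (17%).

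Scaling by *Igkc* shifts the whole distribution, and lambda differences are read against that shift. On the TMM scale the log2 difference of *Igkc* itself was 0.38 over time in controls (standard error 0.12, edgeR adjusted p = 0.104) and -0.07 in knockouts (standard error 0.14). It was -0.45 in the interaction (standard error 0.18, edgeR adjusted p = 0.442). Between genotypes it was 0.08 at ZT0 (standard error 0.13) and -0.37 at ZT12 (standard error 0.13, edgeR adjusted p = 0.562). Over time in controls the median log2 difference relative to *Igkc* was 0.13 for the 6 lambda genes and -0.30 for all genes. Over time in knockouts it was -0.09 against 0.05, in the interaction -0.48 against 0.37, between genotypes at ZT0 0.45 against -0.07, and at ZT12 0.26 against 0.29. In controls and at ZT0 between genotypes, 5 of the 6 lambda genes were above 0 on both scales, and in the interaction 1 of 6 was above 0 on both. Between genotypes at ZT12, 5 of 6 were above 0 relative to *Igkc* but only 2 of 6 on the TMM scale, so that this direction depends on the scaling. The libraries of high immunoglobulin share, which also held the highest lambda shares of their groups, bear on these signs too. Without them, relative to *Igkc*, 2 of the 6 were above 0 over time in controls, 5 in knockouts, 5 in the interaction, 4 between genotypes at ZT0 and 6 at ZT12. All values below are counts per 10000 *Igkc* counts of the same mouse or log2 differences relative to *Igkc*, with standard errors and adjusted p-values from edgeR.

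*Iglv1*, the V gene with most counts, varied least. It was at 382 in the lowest control at ZT0, 465 at the median and 642 in the highest, and in controls at ZT12 it was at 296, 428 and 936. In knockouts at ZT0 it was at 531, 700, 647 and 599.9. In knockouts at ZT12 it was at 613, 697, 493.0, 561 and 745. The knockouts fell within the span of the controls. The difference between genotypes was 0.34 at ZT0 (standard error 0.24, edgeR adjusted p = 1) and 0.27 at ZT12 (standard error 0.23, edgeR adjusted p = 0.517). The value at ZT12 was 0.53 without control replicate 4 of that time, 0.15 without replicate 3, and 0.74 (standard error 0.21, edgeR adjusted p = 1) without the 4 libraries of high immunoglobulin share. Over time the change was 0.07 in controls (standard error 0.22), or -0.39 without these libraries, and 0.01 in knockouts (standard error 0.25).

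*Iglv2*, nearly identical to *Iglv1* in sequence, varied most. In controls at ZT0 it was at 5.63 in the lowest mouse, 12.6 at the median and 35.9 in the highest, and in controls at ZT12 at 8.55, 26.9 and 57.9. Knockouts at ZT0 were at 26.6, 15.9, 260 and 40.5. Knockouts at ZT12 were at 23.3, 113, 32.1, 31.9 and 25.3. A single mouse at ZT0 and another at ZT12 held far more *Iglv2* than the rest of their knockout groups, and the remaining knockouts overlapped the controls. The difference between genotypes was 2.46 at ZT0 (standard error 0.77, unadjusted p = 0.0052, edgeR adjusted p = 1), and it was 0.82 without knockout ZT0 replicate 3. At ZT12 it was 0.69 (standard error 0.72, edgeR adjusted p = 0.621) and 0.01 without knockout ZT12 replicate 2. The change over time was 0.84 in controls (standard error 0.69) and -0.93 in knockouts (standard error 0.79), the latter 0.71 without knockout ZT0 replicate 3.

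*Iglv3*, the V gene least like the others, had fitted changes over time of opposite sign in the genotypes, and neither passed the test. In controls at ZT0 it was at 11.3 in the lowest mouse, 17.4 at the median and 40.5 in the highest, and in controls at ZT12 at 6.49, 9.06 and 31.1, where 1 mouse lay far above the other 5. In knockouts at ZT0 it was at 16.01, 15.2, 12.0 and 15.6, a narrow range. In knockouts at ZT12 it was at 53.6, 12.5, 21.2, 12.9 and 28.6, all above the median of the controls at ZT12. The fitted change over time was -0.77 in controls (standard error 0.42, edgeR adjusted p = 0.259) and 0.81 in knockouts (standard error 0.50, edgeR adjusted p = 0.981). For the interaction the value was 1.57 (standard error 0.65, unadjusted p = 0.0272, edgeR adjusted p = 0.405), and for genotype at ZT12 it was 1.03 (standard error 0.44, unadjusted p = 0.0311, edgeR adjusted p = 0.291), so that neither passed. With each mouse left out in turn the interaction stayed between 1.12 and 2.08. Without knockout ZT12 replicate 1 the difference at ZT12 was 0.58 and the change in knockouts 0.35, and without control ZT12 replicate 5 the difference at ZT12 was 1.54 and the change in controls -1.27.

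**Figure D2:**
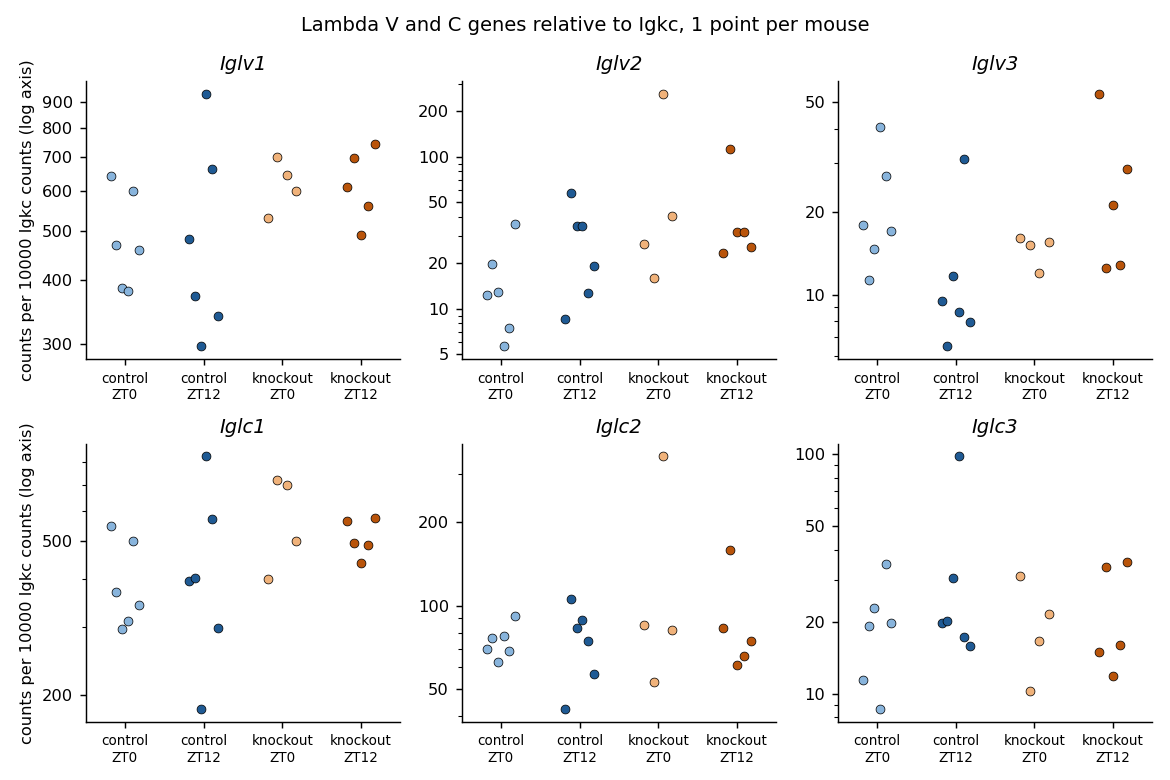
Counts of each lambda V gene (upper row) and C gene (lower row) per 10000 Igkc counts on log vertical axes, by genotype and ZT (horizontal axes); each point is 1 of 21 mice. Iglv2 and Iglc2 share their highest mouse, knockout ZT0 replicate 3, at 260 and 346.

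*Iglc1*, the main lambda constant gene, was at 296 in the lowest control at ZT0, 356 at the median and 547 in the highest. In controls at ZT12 it was at 184, 399 and 829.5. In knockouts at ZT0 it was at 399, 721, 699 and 500.5. In knockouts at ZT12 it was at 564, 494, 440 and 488 in replicates 1 to 4 and at 575 in replicate 5, all above the controls' median at that time. The groups overlapped at both times. The difference between genotypes was 0.55 at ZT0 (standard error 0.29, unadjusted p = 0.0658, edgeR adjusted p = 1) and 0.20 at ZT12 (standard error 0.27, edgeR adjusted p = 0.725). Leaving out control ZT12 replicate 4 gave 0.47 at ZT12, and leaving out replicate 3 of that group gave 0.037. Over time it was 0.18 in controls (standard error 0.26) and -0.18 in knockouts (standard error 0.30). Without the 4 libraries of high immunoglobulin share the difference at ZT12 was 0.81 (standard error 0.27, edgeR adjusted p = 1) and the change in controls was -0.43 (standard error 0.26).

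*Iglc2* was highest in a pair of knockouts. In controls at ZT0 it was at 62.8 in the lowest mouse, 73.2 at the median and 91.5 in the highest, and in controls at ZT12 at 42.3, 79.0 and 105. The knockouts were at 84.8, 53.2, 346 and 81.7 at ZT0. At ZT12 they were at 82.9, 159, 60.8, 66.0 and 74.8. The mice that stood out, knockout ZT0 replicate 3 and knockout ZT12 replicate 2, were those that stood out in *Iglv2*. The difference between genotypes was 0.93 at ZT0 (standard error 0.40, unadjusted p = 0.0338, edgeR adjusted p = 1) and -0.02 without knockout ZT0 replicate 3. At ZT12 it was 0.24 (standard error 0.38, edgeR adjusted p = 0.769) and -0.08 without knockout ZT12 replicate 2. The change in knockouts of -0.67 (standard error 0.42) was 0.28 without knockout ZT0 replicate 3.

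*Iglc3*, nearly identical to *Iglc2*, was the C gene with fewest counts. In controls at ZT0 it was at 8.63 in the lowest mouse, 19.5 at the median and 34.7 in the highest, and in controls at ZT12 at 15.8, 20.0 and 98.1. Knockouts at ZT0 were at 31.2, 10.3, 16.6 and 21.5. Knockouts at ZT12 were at 15.0, 34.02, 11.8, 16.1 and 35.6. Control ZT12 replicate 4 held 98.1 against at most 35.6 in the other 20 mice. The change in controls was 0.79 (standard error 0.48, edgeR adjusted p = 0.305) and 0.09 without that mouse. The difference between genotypes was 0.03 at ZT0 (standard error 0.54) and -0.58 at ZT12 (standard error 0.51), the latter 0.12 without control ZT12 replicate 4.

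Near-identical genes were also counted together. *Iglc2* and *Iglc3* together differed between genotypes by 0.78 at ZT0 (standard error 0.39, edgeR adjusted p = 1) and by 0.03 at ZT12 (standard error 0.37, edgeR adjusted p = 0.973). *Iglv1* and *Iglv2* together differed by 0.48 at ZT0 (standard error 0.24, edgeR adjusted p = 1) and by 0.30 at ZT12 (standard error 0.22, edgeR adjusted p = 0.470). Neither sum was called in any of the 5 comparisons.

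Levels of the genes were compared after each count, that of *Igkc* included, was divided by the gene length in the count table. The values are length-corrected counts per 10000 length-corrected *Igkc* counts. *Iglv1* was first with a mean of 753 ± 212 (SD, n = 21) and *Iglc1* second with 554 ± 184 (SD, n = 21). They were followed by *Iglc2* at 79.0 ± 54.8 (SD, n = 21), *Iglv2* at 57.5 ± 80.9 (SD, n = 21), *Iglc3* at 28.6 ± 22.1 (SD, n = 21) and *Iglv3* at 26.02 ± 16.4 (SD, n = 21). The means of *Iglv1* and *Iglc1* differed by about the SD of either, both stood apart from the other 4 by more than their SDs, and neighbours among these 4 differed by less than the larger of their SDs. *Iglv2* and *Iglc3* differed by more than the SD of *Iglc3* but by less than that of *Iglv2*.

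Within the lambda constant counts, *Iglc1* took 61.7% to 91.9% per mouse, *Iglc2* 6.78% to 32.6% and *Iglc3* 1.31% to 10.3%. The means by group were close for *Iglc1*, at 80.1% ± 4.18 (SD, n = 6) and 78.8% ± 9.18 (SD, n = 6) in controls and 79.5% ± 10.9 (SD, n = 4) and 82.5% ± 5.97 (SD, n = 5) in knockouts, each at ZT0 and ZT12. A high lambda share did not have a single makeup. Knockout ZT0 replicate 3, with the highest share of 9.60%, had 32.6% of its lambda constant counts on *Iglc2* and 1.56% on *Iglc3*. Control ZT12 replicate 4, with a share of 9.22%, had 8.71% on *Iglc2* and 9.66% on *Iglc3*. Knockout ZT0 replicate 2, next with 7.27%, had 91.9% on *Iglc1*. The lowest share, in control ZT12 replicate 3, went with the lowest part of *Iglc1* (61.7%). Among the V genes, *Iglv1* took 70.4% to 96.4% of the lambda V counts.

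**Figure D3:**
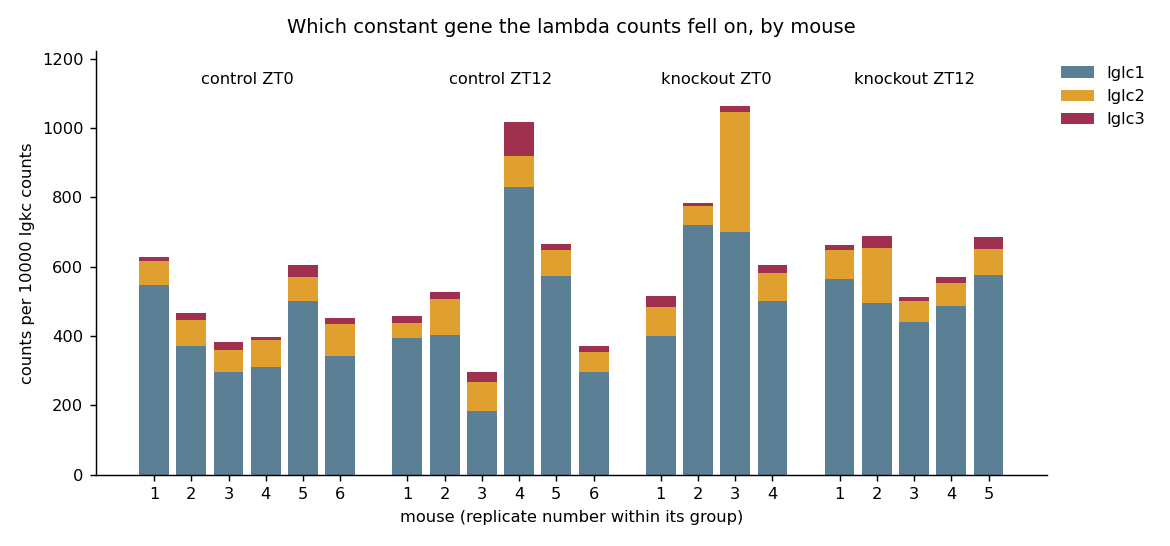
Counts on Iglc1, Iglc2 and Iglc3 per 10000 Igkc counts (vertical axis), stacked, in each of 21 mice (horizontal axis, replicate number within its group). Iglc1 is the main part of every bar, and the tallest bars differ in what is added, Iglc2 in knockout ZT0 replicate 3 and Iglc3 in control ZT12 replicate 4.

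The V and C genes that are joined in 1 mRNA were then compared between single mice. Over the 21 mice, *Iglv1* and *Iglc1* varied together, with a Pearson r of 0.964 on log2 TMM CPM (two-sided permutation test with 100000 resamples, p = 1e-05, the smallest they can give, adjusted p = 9e-05 over 9 pairs) and a Spearman rho of 0.951 (permutation p = 1e-05, adjusted p = 9e-05). *Iglv2* and *Iglc2* also varied together, with r = 0.838 (permutation p = 6e-05, adjusted p = 0.00027) and rho = 0.583 (permutation p = 0.00664, adjusted p = 0.0299). Without the 2 mice farthest from the median in the V gene, r was 0.949 for the first pair and 0.646 for the second, where these mice were knockout ZT0 replicate 3 and knockout ZT12 replicate 2. After removal of the group means r was 0.961 and 0.874. Relative to *Igkc* it was 0.932 and 0.818, and without the 4 libraries of high immunoglobulin share it was 0.949 and 0.631. The other 7 of the 9 pairs of a V and a C gene did not pass, with adjusted p-values from 0.0804 to 0.963 in the permutation test. *Iglv1* and *Iglc3*, which also occur joined, had r = 0.478 (permutation p = 0.0290, adjusted p = 0.0804), which was 0.175 without control ZT12 replicate 4. *Iglv3* and *Iglc2* had r = -0.01 (permutation p = 0.963, adjusted p = 0.963).

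The counts of *Iglv2* and *Iglv3* were also set against those of *Iglc2*, the gene they mostly join. *Iglv2* amounted to 7.25 to 75.2 counts per 100 counts of *Iglc2* in single mice. *Iglv2* and *Iglv3* together amounted to 49.1 ± 8.05 (SD, n = 6) per 100 counts of *Iglc2* in controls at ZT0, 52.5 ± 7.12 (SD, n = 6) in controls at ZT12, 64.0 ± 12.36 (SD, n = 4) in knockouts at ZT0 and 79.8 ± 10.4 (SD, n = 5) in knockouts at ZT12. At ZT12 the 5 knockouts, from 67.8 to 92.8, lay above all 6 controls, from 42.7 to 61.1, whereas at ZT0 the genotypes overlapped, from 50.2 to 78.7 and from 40.5 to 59.4. This ratio was not among the planned comparisons and was described without a test. How many other genes or ratios separate the same groups was not counted, so the separation cannot be read as particular to the lambda genes. Reads could also be split between *Iglv2* and *Iglv1*, or between *Iglc2* and *Iglc3*, which would move the ratio. *Iglv1* amounted to 92.5 to 161 counts per 100 counts of *Iglc1*.

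**Figure D4:**
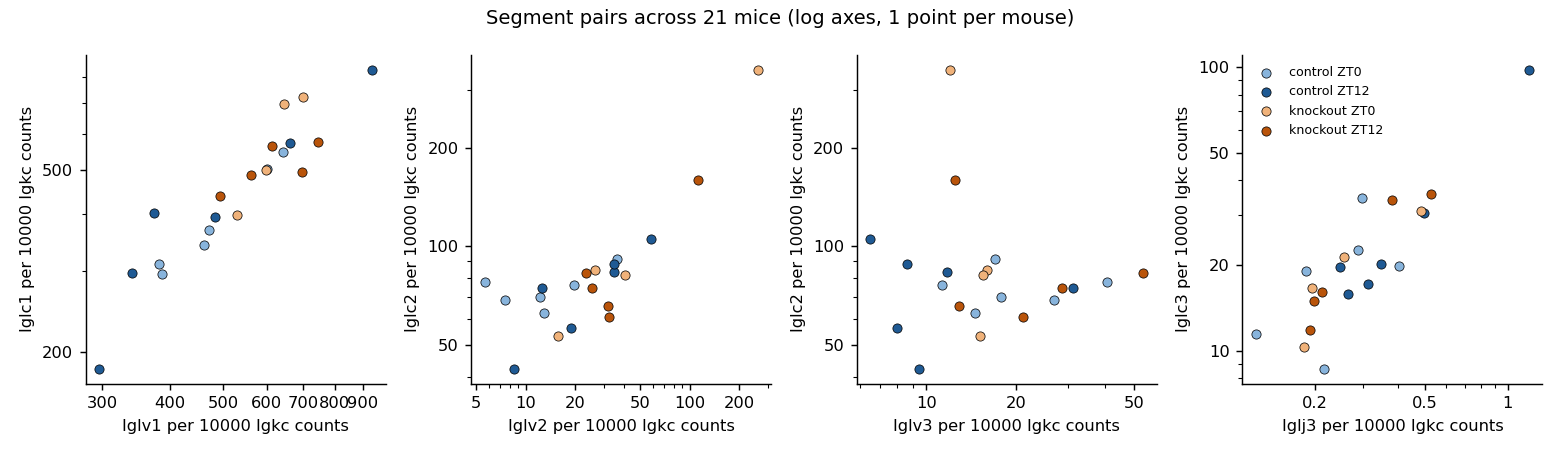
Counts per 10000 Igkc counts of 4 pairs of lambda segments on log axes, with the V or J gene horizontal and the C gene vertical; each point is 1 of 21 mice, coloured by group. Iglv1 with Iglc1 follow a line, Iglv2 with Iglc2 are carried at the upper end by 2 knockouts, Iglv3 with Iglc2 show no line, and Iglj3 with Iglc3 share their highest mouse, control ZT12 replicate 4.

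The J segments *Iglj1*, *Iglj3* and *Iglj3p*, each 38 bases long, held few reads. Why they held few was not tested. How reads that also cover a V or C exon were counted is not given. *Iglj1*, which lies before *Iglc1*, held 17039 counts in all, *Iglj3*, before *Iglc3*, held 1285, and the segment *Iglj3p* held 2625. These pairs were chosen after the values were seen and are given as a description. *Iglj3* varied with *Iglc3*, with r = 0.902 over 21 mice (rho 0.846, and r = 0.879 after removal of the group means), but not with *Iglc1* (r = 0.259). *Iglj1* varied with *Iglc1* (r = 0.660, rho 0.791) and with *Iglv1* (r = 0.706, rho 0.860), and less closely with *Iglc2* (r = 0.547) and *Iglc3* (r = 0.525), which do not follow it. *Iglj3* had r = 0.337 with *Iglc2*, and *Iglj3p* had r = 0.427 with *Iglc3*. In control ZT12 replicate 4, *Iglj3* held 204 counts, against 21 to 115 in the other mice. These correlations share the library and its scaling. *Iglc4* held 132 counts over all mice and *Iglj4* 4.

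The spread of the lambda genes between mice was set beside that of the kappa V genes, as a description. The SD of log2 TMM CPM within groups was 0.49 for *Iglv1*, 0.61 for *Iglc1*, 0.73 for *Iglv3*, 0.77 for *Iglc2*, 0.82 for *Iglc3* and 1.26 for *Iglv2*. It was 0.22 for *Igkc*, which sums over all kappa V genes, and 0.22 at the median of the 883 genes with a mean of at least 100 CPM. The 68 kappa V genes at that level had SDs from 0.46 to 2.32 with a median of 1.02, above 5 of the 6 lambda genes. Of these kappa V genes, 1.47% varied less than *Iglv1* and 80.9% less than *Iglv2*. *Iglv1* was also the most abundant of these V genes, with 6183 CPM on average against at most 4815 CPM for a kappa V gene, all of which differ in length. The most abundant lambda genes, *Iglv1* and *Iglc1*, had the lowest SDs, but *Iglv3* had the lowest level, 203 CPM on average, and a lower SD than *Iglc2*, *Iglc3* and *Iglv2*.

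**Figure D5:**
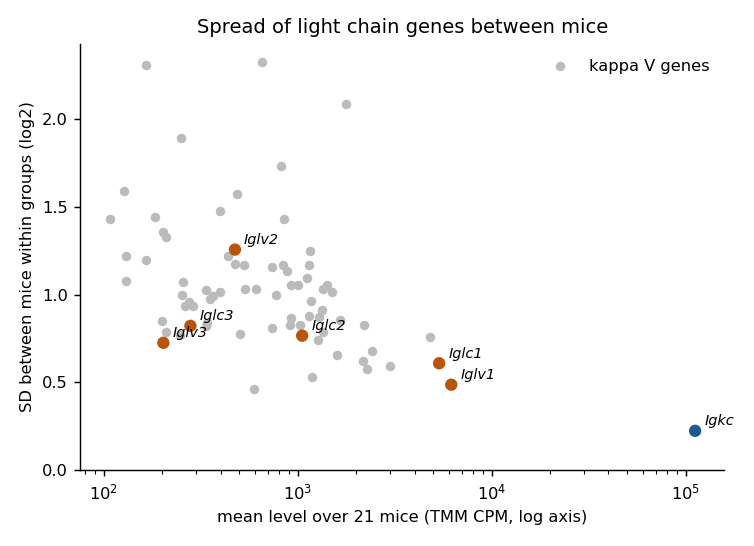
SD between mice within groups of log2 TMM CPM (vertical axis) against the mean level over 21 mice (TMM CPM, log horizontal axis) for the 6 lambda genes, Igkc and 68 kappa V genes (grey). Iglv1 lies near the lower edge of the kappa V genes at 0.49, Iglv2 among their upper part at 1.26, and Igkc below all at 0.22.

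Genes that act on or with the light chain were examined as well. The recombinase genes *Rag1* and *Rag2*, which cut light chain genes in developing B cells, held 0 counts in all 21 mice, which allows at most 3 counts per library, and *Dntt*, which adds bases at the joints, held 14 counts in all. Of the surrogate light chain genes of B cell precursors, *Igll1* held 1 count, *Vpreb2* 2 and *Vpreb1* 28. *Vpreb3*, placed here with the surrogate light chain genes, was expressed at 18.6 to 74.7 CPM. Its means were 55.3 ± 7.79 (SD, n = 6) and 43.9 ± 16.1 CPM (SD, n = 6) in controls and 39.6 ± 16.2 (SD, n = 4) and 37.9 ± 7.46 CPM (SD, n = 5) in knockouts, each at ZT0 and ZT12. It was called in none of the 5 comparisons on either scale by edgeR, and its change in controls relative to *Igkc* was -0.66 (standard error 0.22, unadjusted p = 0.00607, edgeR adjusted p = 0.101). Of the partners of the light chain, *Igha*, the IgA heavy chain, *Jchain*, which links IgA units, and *Ighm*, the IgM heavy chain, 0 of 3 were called in any of the 5 comparisons with TMM scaling.

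Over 11629 genes with a mean of at least 1 CPM, the levels most like the sum of *Iglc1*, *Iglc2* and *Iglc3* were those of *Psenen* (r = 0.822), *Mrpl28* (r = 0.813), *Chchd7* (r = 0.812), *Aga* (r = 0.801) and *Lamtor2* (r = 0.801), by Pearson r of log2 TMM CPM over 21 mice, which share their libraries and scaling. The summed PC markers had r = 0.713 with the lambda constant sum. That sum is mostly *Igha* and *Jchain*, at 304400 and 48830 CPM on average, against 2197 CPM for *Xbp1*, the next highest. This r therefore says little of the other PC markers. Summed markers of other B cells had r = -0.54, of T cells -0.07, of myeloid cells -0.55 and of epithelial cells 0.21. The part of these markers in the lambda levels was not tested.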

How the data were processed

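RNA from sort-purified PCs of 21 mice was sequenced as poly-A libraries, and the authors deposited raw read counts per gene, as whole numbers without normalization. Aligner, counter and strand setting are not given in the sources used here. Gene positions match GRCm38, since 52019 of 53620 genes found in GENCODE M21 have the same coordinates. The submitters' processing notes name DESeq2, and the published methods remove genes under 10 counts in total, which was done here too.

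Counts were fitted with edgeR 4.0.16 in R 4.3.3 (robust quasi-likelihood, means of the 4 groups) with TMM scaling, and again with the *Igkc* count as library size. Standard errors were taken from the test statistic. Adjustment of p-values was by Benjamini-Hochberg over all genes tested. Both fits were tested on simulated data. A minimum of recovered calls was required with TMM scaling and with a steady *Igkc*, but not with *Igkc* at its own spread. A reference that varies between mice costs calls, which limits what the absence of calls relative to *Igkc* can show. The precision is that of 14471018 to 22785835 counts per library. No pair of libraries of a group agreed within sampling noise (chi-square per gene at least 18.9). Replicate numbers were not taken to pair the mice (correlations of same-numbered deviations from -0.258 to 0.346 over 19 pairs). The count columns run through the 4 groups in several rounds, which the replicate numbers do not mark. Knockout ZT0 replicate 3, knockout ZT12 replicate 2 and control ZT12 replicates 3 and 4 fall in the same round. What these rounds stand for is not given, and their part in the spread between mice was not tested. Identities come from global alignments in Biopython 1.88 of exons in the reference.

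The 6 genes were given, and they, the other lists and the tests were chosen with earlier results of these data known. Named genes are these 6 and *Igkc*, the other genes of the locus, surrogate light chain, recombinase and partner genes, and the 5 genes most like the lambda constant sum. Alternatives were DESeq2 1.42.0, other scalings and count filters, a threshold of 0.01, only the groups compared, the replicate block, near-identical genes summed, V in place of C genes, and each library left out. Leaving out the 4 libraries of high immunoglobulin share was chosen after seeing the data.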

Additional observations from a re-analysis of the deposited data

Results flagged for a closer look

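In 6 of the 28 sets formed by the 4 groups and 7 lambda measures, 1 mouse lay far from the rest of its group by Dixon's test. For normally distributed values that test flags about 1 in 20 by chance. It was applied here without a log transform, and all 6 flags were at the upper end. An excess over 1 in 20 can therefore not be read from this count. Knockout ZT0 replicate 3 stood apart in *Iglv2*, with 260.3 counts per 10000 *Igkc* counts against at most 40.5 in its group, and in *Iglc2*, with 346.1 against at most 84.8. Knockout ZT12 replicate 2 stood apart in the same genes, with 113.1 against at most 32.1 in *Iglv2* and 159.3 against at most 82.9 in *Iglc2*. Control ZT12 replicate 4 stood apart in *Iglc3*, with 98.11 against at most 30.6. Control ZT12 replicate 5 stood apart in *Iglv3*, with 31.14 against at most 11.7. The flags of *Iglv2* and *Iglc2* are not independent, since both genes can be read from the same mRNA.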

How the results depend on the processing

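Of the 6 lambda genes, 0 were called in any of 308 alternative fits over 10 combinations of comparison and scaling, those with DESeq2 included. These fits called 0% to 10.4% of all genes, with a median of 0.00987%, and 115 of them called 0 genes of any kind. The highest share was over time in controls relative to *Igkc* without control ZT12 replicate 1. The replicate block changed no call of these genes, but turned the sign of *Iglc2* over time in controls (-0.041) and of *Iglv1* over time in knockouts (-0.093), which was -0.090 with kappa V genes added to the reference. With V in place of C genes the interaction of the lambda share was -3.76 percentage points, against -1.56 with C genes. *Iglv3* with *Iglc2* had r = 0.064 after removal of group means.

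Without the 4 libraries of high immunoglobulin share, the interaction of the lambda share turned to 0.954 points, and log2 differences relative to *Igkc* changed sign over time in controls for *Iglv1* (-0.39), *Iglc1* (-0.43) and *Iglc2* (-0.30), and in knockouts for *Iglv2* (0.71) and *Iglc2* (0.28). They did so in the interaction for *Iglv1* (0.42), *Iglv2* (0.30), *Iglc1* (0.36) and *Iglc2* (0.57), and between genotypes for *Iglc2* at ZT0 (-0.025) and *Iglc3* at ZT12 (0.029). *Iglv3* with *Iglc2* had r = 0.17. The cause was not tested, and the groups then hold 3 controls at ZT12 and 3 knockouts at ZT0. The libraries left out held the highest lambda shares of their groups, so the turned signs are not independent of the choice.

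With each library left out in turn, signs turned for these log2 differences. Over time in controls *Iglc1* ranged from -0.093 to 0.34, *Iglc2* from -0.11 to 0.13 and *Iglv1* from -0.19 to 0.19. Over time in knockouts *Iglc2* ranged from -0.99 to 0.28, *Iglc3* from -0.047 to 0.48, *Iglv1* from -0.067 to 0.079 and *Iglv2* from -1.61 to 0.71. In the interaction *Iglc2* ranged from -1.0 to 0.27, *Iglc3* from -0.86 to 0.086 and *Iglv1* from -0.18 to 0.19. Between genotypes *Iglc2* ranged from -0.025 to 1.20 and *Iglc3* from -0.27 to 0.28 at ZT0, and from -0.078 to 0.36 and -0.81 to 0.12 at ZT12. The r of *Iglv3* with *Iglc2* ranged from -0.10 to 0.046, and 2 to 4 of the 9 V and C pairs passed, 4 without control ZT12 replicate 3. Depth limits the J segments and *Iglc4*, not the 6 genes.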
